A study of Glycine max with 12 samples.

Results

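Transcript levels of 5 enzyme genes at the entry to isoflavone biosynthesis were followed in soybean roots exposed to cadmium (Cd), to a bacterium, or to both. The genes were the cinnamate 4-hydroxylase gene CYP73A11 (GLYMA_02G236500), the chalcone synthase genes CHS7 (GLYMA_01G228700) and GLYMA_11G011500, and the isoflavone synthase genes IFS2 (GLYMA_13G173500) and GLYMA_07G202300. They were picked by identifier from the 49128 genes of the deposited table because their levels in these same libraries had been seen to differ between groups. Their levels and changes are therefore given as a description, with no test. The study sequenced RNA from roots of the cultivar Williams 82 in 12 libraries, 3 in each of 4 groups. The Cd+OP group received Cd and OP, the Cd group Cd alone, the control+OP group OP alone, and the control group neither. OP is read here as Oceanobacillus picturae, the bacterium in the title of the series, whose stated subject is Cd stress and growth of soybean seedlings. The labels put a Cd dose of 70 mg/L on every sample, control samples included, so the dose could not be tied to a group. None of the labels gives the plants' age, the length of exposure or the way the bacterium was applied. Whether replicates were separate plants is not stated either, so every p-value rests on the spread among the 3 libraries of a group, which may be technical.

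Levels are given in FPKM, fragments scaled to transcript length and sequencing depth, as the authors deposited them. Summed estimated counts per library lay between 49904227 and 57693211, and between 10586 and 74169 counts stood behind each value of the 5 genes. Of the 49128 genes, 30340 had a mean of at least 1 FPKM over the 12 libraries and were tested, all 5 genes among them. The tissue label was checked against marker genes. All 12 annotated Casparian strip genes, which mark the root endodermis, had reads, and 10 of them averaged at least 1 FPKM. Their summed level was 126 to 133 FPKM in Cd+OP roots, 98.1 to 101 FPKM in Cd roots, 131 to 139 FPKM in control+OP roots and 128 to 134 FPKM in control roots. Both leghaemoglobin genes of the nodule check had a summed level of 3.21 to 3.72 FPKM in Cd+OP roots, 0.941 to 2.18 FPKM in Cd roots, 149 to 159 FPKM in control+OP roots and 0.982 to 1.91 FPKM in control roots. Of 50 chlorophyll binding protein genes, 10 averaged at least 1 FPKM, and the summed level of all 50 was 35.6 to 37.7 FPKM in Cd+OP roots, 17.5 to 19.8 FPKM in Cd roots, 53.1 to 57.3 FPKM in control+OP roots and 73.2 to 78.9 FPKM in control roots. The 3 rubisco small subunit genes summed to 7.54 to 9.61 FPKM in Cd+OP roots, 0.681 to 0.784 FPKM in Cd roots, 14.1 to 15.7 FPKM in control+OP roots and 20.4 to 23.04 FPKM in control roots. Of 2 glycinin genes, which mark seed remnants, 1 was listed at 0 in all libraries, and their sum was at most 0.110 FPKM in any library. Root, nodule and green tissue markers thus moved with the groups, and their part in the results on the 5 genes was not tested. In RNA from whole roots, fewer cells of a type and less RNA per cell cannot be told apart.

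Isoflavones are phenolic compounds found mainly in legumes, where they act in roots as signals to symbiotic bacteria and as precursors of the antimicrobial pterocarpans. Cinnamate 4-hydroxylase, a cytochrome P450, makes p-coumarate from the cinnamate that phenylalanine ammonia-lyase releases, and this step also feeds lignin and all flavonoids. Chalcone synthase joins the activated p-coumarate to malonyl-CoA units and so opens flavonoid biosynthesis, and isoflavone synthase, another cytochrome P450, moves the aryl ring of a flavanone and so commits it to the isoflavones.

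The 5 genes lie on 5 chromosomes. Coordinates are those of the authors' table, for which the labels and headers name no genome build. CYP73A11 spans chromosome 2, 42416141 to 42420467, on the minus strand. CHS7 spans chromosome 1, 55659010 to 55660950, and GLYMA_11G011500 spans chromosome 11, 802453 to 804663, both on the plus strand. GLYMA_07G202300 spans chromosome 7, 37166660 to 37169027, and IFS2 spans chromosome 13, 28761503 to 28763755, both on the plus strand. None of the 5 overlaps another gene of the table. GLYMA_11G011500 and GLYMA_07G202300 carry no symbol there. GLYMA_11G011500 is annotated with chalcone synthase activity, and GLYMA_07G202300 with the isoflavone synthase code EC 1.14.14.87. Chalcone synthases form a family of close copies in soybean, and both isoflavone synthases are near copies too, so that the split of reads among them is uncertain.

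CYP73A11 stood highest under Cd alone and was far lower in the other 3 groups. Its level was 91.6, 93.4 and 98.7 FPKM in the 3 Cd+OP libraries and 388, 375 and 394 FPKM in the 3 Cd libraries. It was 122, 114 and 122 FPKM in the control+OP libraries and 125, 124 and 126 FPKM in the control libraries. The Cd libraries lay far above all 9 others, Cd+OP libraries were the lowest of all, and no groups overlapped. The group means were 94.6 ± 3.67 FPKM in Cd+OP roots, 386 ± 9.68 FPKM in Cd roots, 119 ± 4.79 FPKM in control+OP roots and 125 ± 1.16 FPKM in control roots (SD, n = 3 each). The fitted log2 fold change was -2.10 ± 0.036 (SE) for Cd+OP against Cd and 1.63 ± 0.035 for Cd against control. It was -0.06 ± 0.035 for control+OP against control, and these neighbours in the order lay close together, with 122.3 FPKM in the highest control+OP library and 123.5 FPKM in the lowest control library. In the ranking of the 30340 tested genes by mean level, CYP73A11 was number 759 in Cd+OP roots, number 65 in Cd roots, number 520 in control+OP roots and number 435 in control roots.

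CHS7 was the most abundant of the 5 genes in every group. Its level was 375, 369 and 382 FPKM in the Cd+OP libraries and 805, 805 and 828 FPKM in the Cd libraries. It was 583, 556 and 582 FPKM in the control+OP libraries and 441, 425 and 428 FPKM in the control libraries. The order was Cd, control+OP, control and Cd+OP, with no overlap between neighbours. The means were 375 ± 6.46 FPKM in Cd+OP roots, 812 ± 13.3 FPKM in Cd roots, 574 ± 15.2 FPKM in control+OP roots and 431 ± 8.70 FPKM in control roots (SD, n = 3 each). The log2 fold change with OP was -1.19 ± 0.029 in roots with Cd (Cd+OP against Cd) and 0.42 ± 0.029 in roots without it (control+OP against control). CHS7 was thus lower with the bacterium under Cd and higher with it in roots without Cd.

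GLYMA_11G011500, the other chalcone synthase gene, ran at a lower level than CHS7. On the log2 scale it differed more than CHS7 in Cd+OP against Cd and in Cd against control. Its level was 114, 114 and 112 FPKM in the Cd+OP libraries and 360, 361 and 362 FPKM in the Cd libraries. It was 143, 133 and 143 FPKM in the control+OP libraries and 108, 103 and 102 FPKM in the control libraries. On the FPKM scale the Cd libraries stood apart at the top and the control libraries were the lowest. The means were 113 ± 0.942 FPKM in Cd+OP roots, 361 ± 1.04 FPKM in Cd roots, 139.7 ± 5.78 FPKM in control+OP roots and 104 ± 3.19 FPKM in control roots (SD, n = 3 each). The log2 fold change was -1.75 ± 0.031 for Cd+OP against Cd, 1.79 ± 0.031 for Cd against control and 0.43 ± 0.030 for control+OP against control. For Cd+OP against control it was 0.05 ± 0.030, and its sign changed in 6 of 21 alternative fits, so no direction is given for that comparison.

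The FPKM ratio of CHS7 to GLYMA_11G011500 was 3.30, 3.24 and 3.41 in the Cd+OP libraries, 2.24, 2.23 and 2.29 in the Cd libraries, 4.07, 4.18 and 4.07 in the control+OP libraries and 4.09, 4.13 and 4.20 in the control libraries. The ratios of control+OP and control libraries overlapped, and the ratio was lowest under Cd alone.

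GLYMA_07G202300 was the gene of the 5 that differed least between Cd and control. Its level was 166, 167 and 164 FPKM in the Cd+OP libraries and 308, 299.7 and 320.2 FPKM in the Cd libraries. It was 249, 239 and 242 FPKM in the control+OP libraries and 292, 289 and 284 FPKM in the control libraries. The Cd+OP libraries lay well below the rest, and the Cd libraries only slightly above the control libraries. The means were 166 ± 1.82 FPKM in Cd+OP roots, 309 ± 10.3 FPKM in Cd roots, 243 ± 5.31 FPKM in control+OP roots and 288 ± 4.03 FPKM in control roots (SD, n = 3 each). The log2 fold change was -0.97 ± 0.030 for Cd+OP against Cd, 0.11 ± 0.030 for Cd against control and -0.24 ± 0.030 for control+OP against control. This gene was lower with OP both with and without Cd.

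IFS2 was higher in every treated group than in control roots. Its level was 269, 268 and 266 FPKM in the Cd+OP libraries and 388, 381 and 385 FPKM in the Cd libraries. It was 237, 219 and 235 FPKM in the control+OP libraries and 187, 179 and 183 FPKM in the control libraries. The order was Cd, Cd+OP, control+OP and control, again with no overlap. The means were 268 ± 1.60 FPKM in Cd+OP roots, 385 ± 3.65 FPKM in Cd roots, 231 ± 9.65 FPKM in control+OP roots and 183 ± 3.84 FPKM in control roots (SD, n = 3 each). The log2 fold change was -0.59 ± 0.030 for Cd+OP against Cd, 1.08 ± 0.030 for Cd against control and 0.34 ± 0.030 for control+OP against control. Of the 5 genes, IFS2 had the smallest difference between Cd+OP and Cd.

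**Figure D1:**
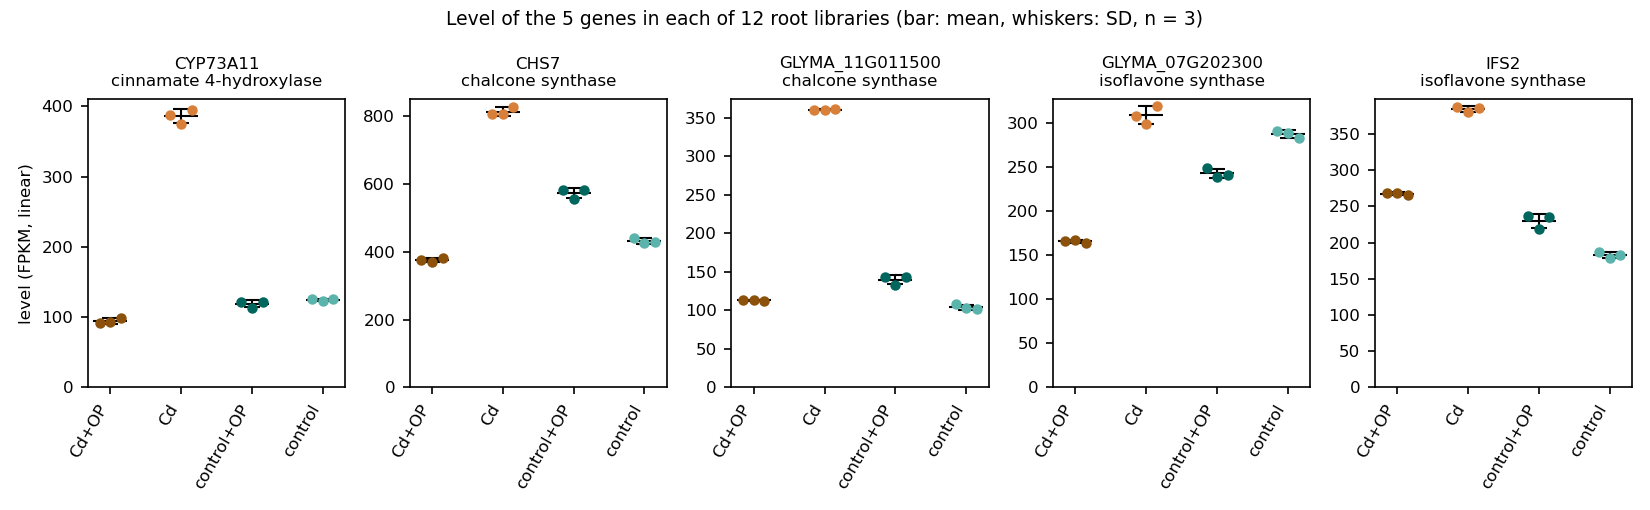
Level of each of the 5 genes in FPKM on a linear axis from 0, by group, with 1 point per library, a bar at the mean and whiskers of 1 SD (n = 3). All 5 genes are highest in the Cd group; CYP73A11 averages 386 FPKM there against 94.6 FPKM in Cd+OP, and GLYMA_07G202300 averages 309 FPKM there, close to its 288 FPKM in control.

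The order of the isoflavone synthase genes turned round between groups. The FPKM ratio of IFS2 to GLYMA_07G202300 was 1.62, 1.60 and 1.62 in the Cd+OP libraries and 1.26, 1.27 and 1.20 in the Cd libraries. It was 0.950, 0.917 and 0.973 in the control+OP libraries and 0.640, 0.620 and 0.645 in the control libraries. IFS2 was thus the more abundant transcript in all 6 libraries with Cd and the less abundant one in all 6 without it. The summed level of both genes was 434 ± 3.25 FPKM in Cd+OP roots, 694 ± 12.7 FPKM in Cd roots, 474 ± 14.1 FPKM in control+OP roots and 471 ± 6.48 FPKM in control roots (SD, n = 3 each). In control+OP and control roots the sums differed by less than their spread, while the share of IFS2 in the sum was 48.6 ± 0.740% in control+OP roots and 38.8 ± 0.494% in control roots.

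All 5 genes had their highest mean in Cd roots, as did 9876 of the 30340 tested genes (32.6%). Of the 76 other tested genes of the pathway list described below, 35 were highest there (46.1%). The FPKM ranges of the groups compared did not overlap in any of 25 combinations of a gene with a comparison. That is common here: the same held for 72.9% of all tested genes in Cd+OP against Cd, 77.2% in Cd against control, 65.4% in control+OP against control, 70.2% in Cd+OP against control+OP and 64.0% in Cd+OP against control. In Cd+OP against control+OP, which sets roots with Cd against roots without it in the presence of the bacterium, the log2 fold change was -0.41 ± 0.035 for CYP73A11, -0.69 ± 0.029 for CHS7, -0.38 ± 0.030 for GLYMA_11G011500 and -0.63 ± 0.030 for GLYMA_07G202300, but 0.14 ± 0.030 for IFS2. All but IFS2 were thus lower with Cd when OP was present, and all 5 were higher with Cd when it was absent. In Cd+OP against control the values were -0.47 ± 0.035 for CYP73A11, -0.27 ± 0.029 for CHS7, -0.87 ± 0.030 for GLYMA_07G202300 and 0.48 ± 0.030 for IFS2. The change with OP in roots with Cd minus that in roots without it was -2.04 ± 0.049 for CYP73A11, -1.60 ± 0.041 for CHS7, -2.17 ± 0.043 for GLYMA_11G011500, -0.73 ± 0.042 for GLYMA_07G202300 and -0.93 ± 0.042 for IFS2. These comparisons share libraries and are not independent of each other. Leghaemoglobin was highest in the control+OP libraries, and its part in the comparisons with that group was not tested.

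**Figure D2:**
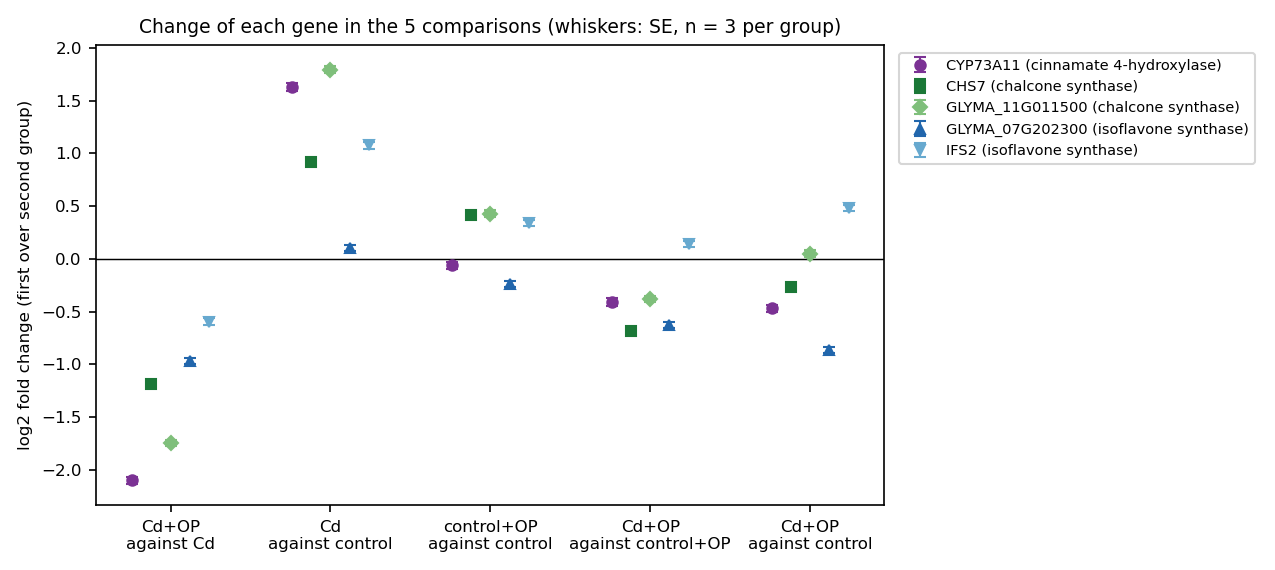
Fitted log2 fold change (first over second group, edgeR) of the 5 genes in 5 comparisons, with whiskers of 1 SE (n = 3 per group) and a line at 0. All 5 genes lie below 0 for Cd+OP against Cd, from -2.10 for CYP73A11 to -0.59 for IFS2, and above 0 for Cd against control, from 0.11 for GLYMA_07G202300 to 1.79 for GLYMA_11G011500.

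The cinnamate hydroxylase family has 3 genes in the table, and its other members are GLYMA_14G205200 and GLYMA_20G114200. GLYMA_14G205200 had 56.8 ± 0.886 FPKM in Cd+OP roots, 212 ± 2.11 FPKM in Cd roots, 68.4 ± 2.04 FPKM in control+OP roots and 63.1 ± 0.695 FPKM in control roots, a course like that of CYP73A11. It fell in Cd+OP against Cd (log2 -1.97 ± 0.033, edgeR adjusted p = 6.8e-25) and rose in Cd against control (log2 1.75 ± 0.033). GLYMA_20G114200 had 26.1 ± 1.20 FPKM in Cd+OP roots, 91.4 ± 2.43 FPKM in Cd roots, 22.4 ± 0.280 FPKM in control+OP roots and 146 ± 3.30 FPKM in control roots. It fell in Cd against control (log2 -0.67 ± 0.035) and in control+OP against control (log2 -2.70 ± 0.038, edgeR adjusted p = 4.78e-26). Both genes were named for their change in Cd against control, which is therefore given without a p-value. GLYMA_20G114200 was the most abundant of the 3 in control roots, with 43.7 ± 0.546% of the family's summed FPKM. CYP73A11 made up 53.3 ± 0.859% of that sum in Cd+OP roots, 56.0 ± 0.318% in Cd roots, 56.8 ± 0.628% in control+OP roots and 37.4 ± 0.220% in control roots. The summed level of the family was 177 ± 3.99 FPKM in Cd+OP roots, 689.6 ± 13.4 FPKM in Cd roots, 210.0 ± 6.69 FPKM in control+OP roots and 334 ± 3.50 FPKM in control roots.

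The chalcone synthase family has 22 genes in the table, 15 of them tested. CHS7 and GLYMA_11G011500 together held 36.0 ± 0.248% of its summed FPKM in Cd+OP roots, 65.9 ± 0.322% in Cd roots, 50.6 ± 0.655% in control+OP roots and 51.2 ± 0.331% in control roots. A block of 9 chalcone synthase genes on chromosome 8, set apart by position after the values were seen, held most of the rest. Its summed level was 821 ± 11.3 FPKM in Cd+OP roots, 569 ± 11.2 FPKM in Cd roots, 654 ± 6.82 FPKM in control+OP roots and 486 ± 6.56 FPKM in control roots. The block was thus highest where Cd and OP met, the group in which CHS7 was lowest. CHS1 (GLYMA_08G109400), a gene of the block, had 149 ± 0.346 FPKM in Cd+OP roots, 66.9 ± 3.05 FPKM in Cd roots, 115 ± 1.96 FPKM in control+OP roots and 86.1 ± 3.49 FPKM in control roots. It rose in Cd+OP against Cd (log2 1.08 ± 0.033, edgeR adjusted p = 9.41e-20) and fell in Cd against control (log2 -0.36 ± 0.033). CHS1 was named for this fall, which is therefore given without a p-value. The genes of the block did not move alike. CHS5 (log2 0.74 ± 0.036), GLYMA_08G110400 (log2 0.79 ± 0.055), GLYMA_08G110500 (log2 1.33 ± 0.044) and GLYMA_08G110700 (log2 0.91 ± 0.047), named after their values were seen, rose in Cd against control. GLYMA_08G110500 also fell in Cd+OP against Cd, by 0.47 on the log2 scale. No p-value is given for it because it was named after its values were seen. CHS6 (GLYMA_09G075200), on chromosome 9, was scarce, with 4.82 ± 0.324 FPKM in Cd+OP roots, 7.35 ± 0.773 FPKM in Cd roots, 3.96 ± 0.244 FPKM in control+OP roots and 1.55 ± 0.184 FPKM in control roots. The summed level of all 22 genes was 1356 ± 16.5 FPKM in Cd+OP roots, 1780.0 ± 23.7 FPKM in Cd roots, 1411 ± 25.6 FPKM in control+OP roots and 1046 ± 17.3 FPKM in control roots. The family total was thus higher in Cd+OP than in control roots, although CHS7 was lower there.

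**Figure D3:**
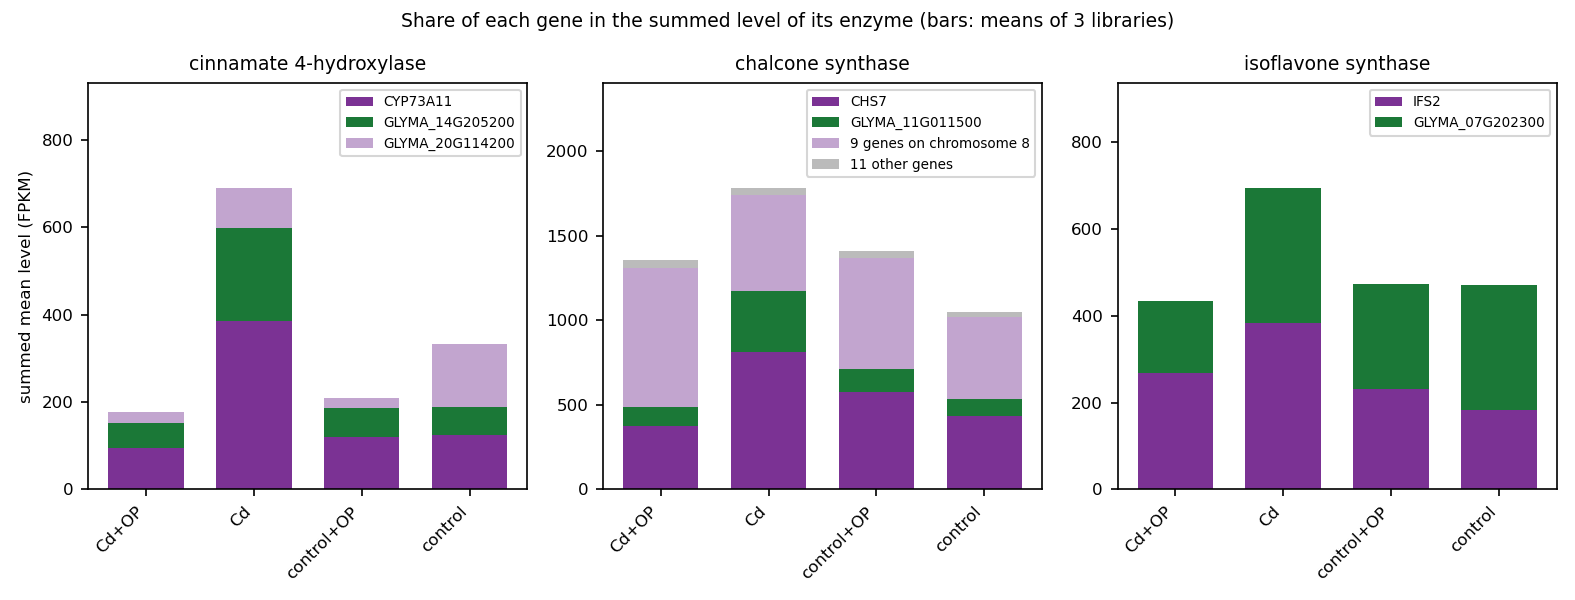
Mean FPKM of the genes of 3 enzymes stacked by group (bars are means of 3 libraries, axes from 0). In the chalcone synthase panel the 9 genes on chromosome 8 take 821 FPKM in Cd+OP against 569 FPKM in Cd, while CHS7 takes 375 FPKM in Cd+OP against 812 FPKM in Cd; in the isoflavone synthase panel IFS2 is the larger share in the groups with Cd.

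The neighbouring enzymes were read from a list of 24 enzymes with 133 genes, built from Gene Ontology and KEGG terms. The enzymes were chosen with earlier results of these data known, so counts over the list are a description. Apart from the 5 genes the list held 128, of which 76 were tested. In Cd+OP against Cd, 23 of the 76 genes rose, 42 fell and 11 were not called, at an edgeR adjusted p under 0.05, and the median log2 fold change was -0.30. Across the whole set of tested genes, 36.4% rose, 34.6% fell and the median was 0.0011. All called phenylalanine ammonia-lyase genes fell, 6 of 10, among them GLYMA_13G145000, the most abundant one, at 152 ± 1.13 FPKM in Cd+OP roots and 237 ± 1.87 FPKM in Cd roots (log2 -0.72 ± 0.029, edgeR adjusted p = 3.29e-17). Of 11 genes for 4-coumarate-CoA ligase, which activates p-coumarate, 8 fell and 2 rose, GLYMA_01G010000 being one that rose (log2 0.73 ± 0.19). The chalcone reductase gene GLYMA_02G307300, whose enzyme works with chalcone synthase to give 5-deoxy isoflavonoids, fell by 0.85 on the log2 scale (edgeR adjusted p = 1.78e-13). Of the 13 tested chalcone synthase genes other than CHS7 and GLYMA_11G011500, 6 rose, 4 fell and 3 were not called. Chalcone isomerase genes, whose enzyme closes the ring of the chalcone, split. CHI1A (GLYMA_20G241500) fell to 79.8 ± 1.38 FPKM in Cd+OP roots, against 166 ± 4.32 FPKM in Cd roots (log2 -1.13 ± 0.033, edgeR adjusted p = 4.19e-20). CHI1B1 (GLYMA_20G241600), its neighbour on chromosome 20, rose to 83.8 ± 3.17 FPKM in Cd+OP roots, against 29.5 ± 1.07 FPKM in Cd roots (log2 1.44 ± 0.039, edgeR adjusted p = 9.21e-21).

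Downstream of isoflavone synthase, the dehydratase gene HIDH (GLYMA_01G239600), which completes the isoflavone, had 419 ± 8.86 FPKM in Cd+OP roots, 436 ± 6.59 FPKM in Cd roots, 343 ± 11.8 FPKM in control+OP roots and 324 ± 14.9 FPKM in control roots. It fell by 0.13 on the log2 scale in Cd+OP against Cd (edgeR adjusted p = 0.000669). The isoflavone reductase gene GLYMA_11G070500, of the route to pterocarpans, fell to 20.2 ± 1.16 FPKM in Cd+OP roots, against 76.1 ± 2.65 FPKM in Cd roots (log2 -1.98 ± 0.049, edgeR adjusted p = 1.22e-21). CYP93A1 (GLYMA_03G143700), a dihydroxypterocarpan 6a-monooxygenase of the glyceollin route, had 79.9 ± 1.73 FPKM in Cd+OP roots and 93.6 ± 1.70 FPKM in Cd roots (log2 -0.30 ± 0.031, edgeR adjusted p = 5.36e-09). GmIF7GT1 (GLYMA_16G175600), which attaches glucose to isoflavones, was scarce, at 0.533 ± 0.0929 FPKM in Cd+OP roots, 0.197 ± 0.0763 FPKM in Cd roots, 3.23 ± 0.105 FPKM in control+OP roots and 0.646 ± 0.202 FPKM in control roots. The malonyltransferase gene GLYMA_13G056100, whose enzyme modifies isoflavone glucosides, was highest in control roots, with 32.3 ± 0.806 FPKM in Cd+OP roots, 60.8 ± 2.74 FPKM in Cd roots, 40.2 ± 0.633 FPKM in control+OP roots and 79.4 ± 3.44 FPKM in control roots. Its relative GLYMA_19G030500 had 10.6 ± 0.337 FPKM in Cd+OP roots, 9.67 ± 0.710 FPKM in Cd roots, 11.4 ± 0.540 FPKM in control+OP roots and 12.8 ± 0.364 FPKM in control roots.

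In Cd against control, 42 of the 76 genes rose and 26 fell (median log2 0.49), where 37.6% of all tested genes rose and 38.7% fell. The genes of the entry steps, up to chalcone isomerase, rose in 27 of 42 and fell in 10 (median 0.81), whereas 7 of 15 isoflavonoid genes downstream rose and 7 fell (median -0.02). GLYMA_13G145000 rose to 237 ± 1.87 FPKM in Cd roots, against 114 ± 0.693 FPKM in control roots (log2 1.07 ± 0.029, edgeR adjusted p = 7.83e-21). GLYMA_11G070500 rose by 2.22 on the log2 scale (edgeR adjusted p = 1.18e-22). The largest log2 value on the list was 5.44 ± 0.22, for the 4-coumarate-CoA ligase gene GLYMA_11G091600. Its level was 5.70 ± 0.301 FPKM in Cd roots and 0.124 ± 0.0141 FPKM in control roots. This gene reached the mean of 1 FPKM needed for a test only through the Cd group. The rule also named it for this same change, so the value is a description and no p-value is given. CHI1B1 fell by 0.97 on the log2 scale, and as the rule picked it for this change, no p-value is given.

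In control+OP against control, 50 of the 76 genes rose and 13 fell (median log2 0.41), where 34.6% of all tested genes rose and 27.2% fell and their median was 0.06. Chalcone synthase genes other than CHS7 and GLYMA_11G011500 rose in 12 of 13 tested, and all 5 chalcone isomerase genes rose, CHI1B1 among them with 133 ± 5.13 FPKM in control+OP roots and 57.9 ± 1.46 FPKM in control roots (log2 1.20 ± 0.037, edgeR adjusted p = 2.52e-19). GmIF7GT1, counted among the genes that rose, had a log2 value of 2.31 ± 0.24. It reached the mean of 1 FPKM needed for a test only through the control+OP group, so the value is a description and no p-value is given. CYP93A1 fell to 64.4 ± 0.578 FPKM in control+OP roots, against 100.4 ± 4.41 FPKM in control roots (log2 -0.63 ± 0.032, edgeR adjusted p = 3.93e-15). Leghaemoglobin stood at 149 to 159 FPKM in these control+OP libraries, and its part in these counts was not tested.

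In Cd+OP against control+OP, 23 of the 76 genes rose and 41 fell (median log2 -0.29), where 33.6% of all tested genes rose and 33.1% fell. Of the 13 chalcone synthase genes other than CHS7 and GLYMA_11G011500, 9 rose and 4 were not called, while the log2 value was -0.69 for CHS7 and -0.38 for GLYMA_11G011500. In Cd+OP against control, 37 rose and 28 fell (median log2 0.16), where 30.2% of all tested genes rose and 29.3% fell. There 12 of the same 13 chalcone synthase genes rose, while CHS7 had a log2 value of -0.27. CHS1 rose by a log2 of 0.72 ± 0.033 (edgeR adjusted p = 7.21e-16).

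The test of whether the change with OP differed between roots with and without Cd called 16 of the 76 genes higher and 48 lower (median log2 -0.54), where it called 33.4% of all tested genes higher and 30.4% lower. Lower means that the log2 change with OP was more negative, or less positive, in roots with Cd than in roots without it. Phenylalanine ammonia-lyase genes were lower in 9 of 10 and 4-coumarate-CoA ligase genes in 9 of 11. CHI1A was lower by this measure, with a log2 difference of -1.73 ± 0.047 (edgeR adjusted p = 1.72e-20).

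**Figure D4:**
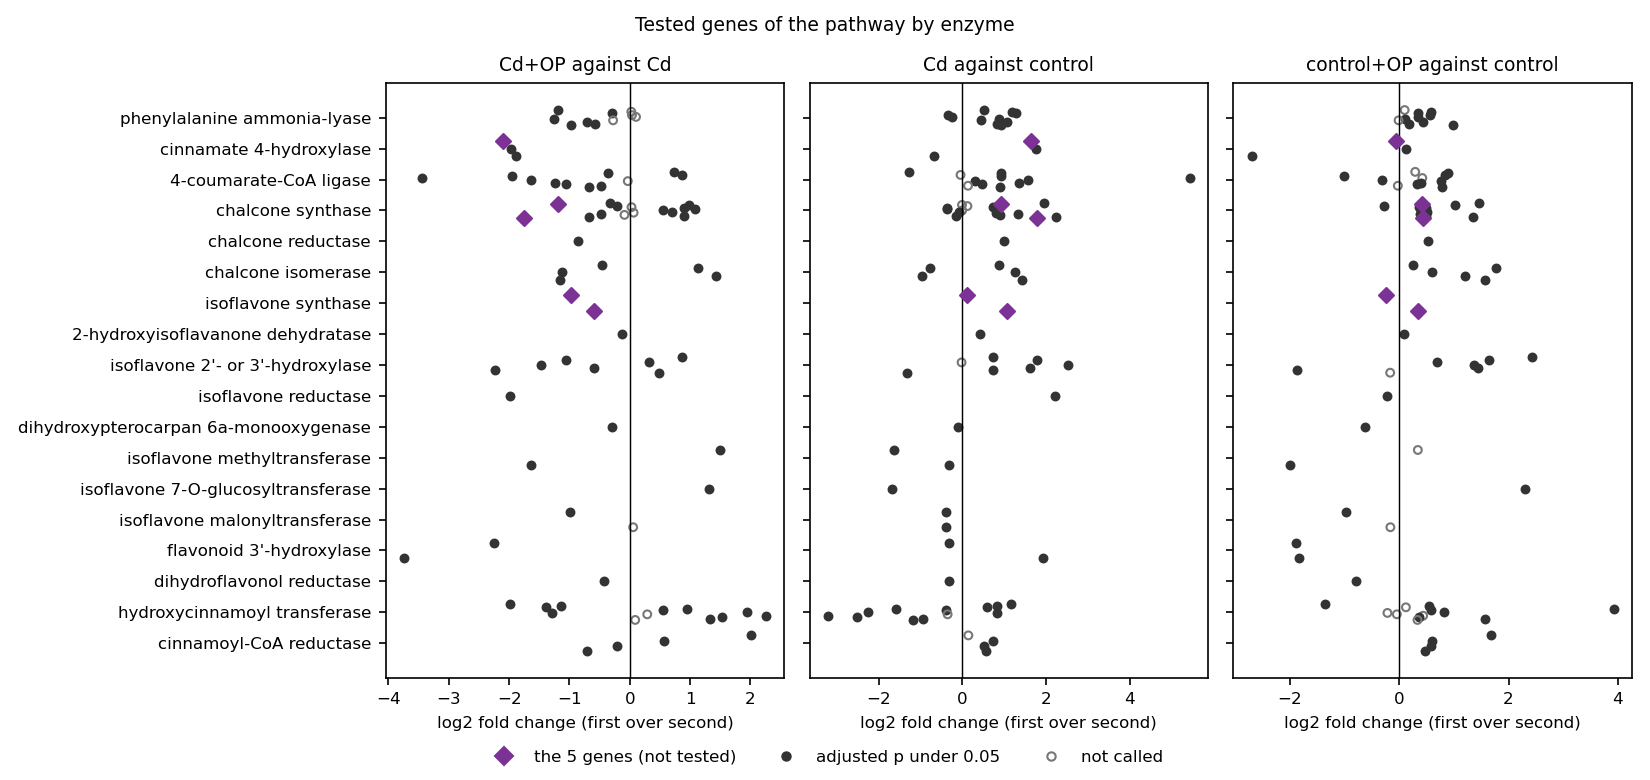
Fitted log2 fold change (horizontal axes, first over second group) of every tested gene of the pathway list in 3 comparisons, by enzyme, with the 5 genes as diamonds (not tested), filled circles for an edgeR adjusted p under 0.05 and open circles for genes not called. Phenylalanine ammonia-lyase and 4-coumarate-CoA ligase genes lie mostly below 0 for Cd+OP against Cd and above 0 for Cd against control, while hydroxycinnamoyl transferase genes lie on both sides.

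Branches that leave the pathway were mixed. The flavonoid 3'-hydroxylase gene GLYMA_06G202300 fell to 2.13 ± 0.268 FPKM in Cd+OP roots, against 27.2 ± 1.57 FPKM in Cd roots (log2 -3.75 ± 0.11, edgeR adjusted p = 4.92e-20). The second such gene, GLYMA_05G022100, had 1.19 ± 0.161 FPKM in Cd+OP roots, 5.42 ± 0.798 FPKM in Cd roots, 1.83 ± 0.0685 FPKM in control+OP roots and 6.82 ± 0.153 FPKM in control roots. The cinnamoyl-CoA reductase gene GLYMA_07G023700, of the lignin branch, rose to 34.8 ± 0.779 FPKM in Cd+OP roots, against 8.18 ± 0.540 FPKM in Cd roots (log2 2.01 ± 0.066, edgeR adjusted p = 4.8e-19). GLYMA_08G218100, annotated with the same activity, had 19.2 ± 0.788 FPKM in Cd+OP roots, 12.3 ± 0.159 FPKM in Cd roots, 11.2 ± 0.415 FPKM in control+OP roots and 7.37 ± 1.21 FPKM in control roots. The hydroxycinnamoyl transferase gene GLYMA_18G103500 rose in Cd+OP against Cd, with 25.1 ± 0.785 FPKM in Cd+OP roots and 9.51 ± 0.414 FPKM in Cd roots (log2 1.33 ± 0.058, edgeR adjusted p = 1.81e-16). Others went the other way. The most abundant reductase gene, GLYMA_15G003600, had 28.1 ± 2.29 FPKM in Cd+OP roots and 43.5 ± 0.520 FPKM in Cd roots. The transferase gene GLYMA_03G028700 had 1.63 ± 0.252 and 6.19 ± 0.325 FPKM there. In this comparison 2 of 4 reductase genes rose and 2 fell, and 6 of 12 transferase genes rose and 4 fell (all tested genes: 36.4% and 34.6%). No annotated gene of flavanone 3-hydroxylase, flavonol synthase, flavone synthase, anthocyanidin synthase, anthocyanidin reductase or leucoanthocyanidin reductase reached the level needed for a test. Their most abundant genes were GLYMA_02G048600, GLYMA_13G082300, GLYMA_12G067000, GLYMA_01G214200, GLYMA_08G062000 and GLYMA_10G204800 in that order. The highest group mean among these was 1.07 FPKM, for the flavanone 3-hydroxylase gene GLYMA_02G048600 in control roots, which overlaps GLYMA_02G048400 on the same strand.

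The 5 genes had different neighbours. The nearest gene of the list to GLYMA_11G011500 was the 4-coumarate-CoA ligase gene GLYMA_11G010500, 61.3 kb away with 9 genes between. GLYMA_11G010500, named here for its position, had 16.2 ± 0.574 FPKM in Cd+OP roots, 59.3 ± 1.12 FPKM in Cd roots, 15.4 ± 0.711 FPKM in control+OP roots and 31.3 ± 1.28 FPKM in control roots. It fell in Cd+OP against Cd (log2 -1.94 ± 0.046, edgeR adjusted p = 5.41e-22) and in control+OP against control (log2 -1.02 ± 0.046, edgeR adjusted p = 5.59e-16), where GLYMA_11G011500 had a log2 value of 0.43. The nearest gene to CHS7 was another 4-coumarate-CoA ligase gene, GLYMA_01G232400, 230.0 kb away with 36 genes between. It had 88.7 ± 0.834 FPKM in Cd+OP roots, 109 ± 2.17 FPKM in Cd roots, 106 ± 1.83 FPKM in control+OP roots and 57.2 ± 1.15 FPKM in control roots. The isoflavone methyltransferase gene GLYMA_13G173600 lay 6.8 kb from IFS2 with 0 genes between, and its mean over the 12 libraries was 0.0498 FPKM.

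Likeness was measured as Pearson's r of log2(FPKM + 1) over the 12 libraries, among 16335 genes that averaged 5 FPKM or more. The 12 libraries fall into 4 groups, so r mostly follows 4 group means and is a description only. CYP73A11 was most like the aldehyde dehydrogenase gene GLYMA_01G031500 (r = 0.995), and its relative GLYMA_14G205200 came at place 4 (r = 0.992). GLYMA_18G158400, GLYMA_02G129500 and GLYMA_05G133100 completed its 5 (r = 0.994, 0.994 and 0.990). Of the 5 genes most like CHS7, 3 are annotated with ATP citrate synthase activity, GLYMA_02G036300 (r = 0.994), GLYMA_01G028900 (r = 0.994) and GLYMA_09G035600 (r = 0.991). The others were GLYMA_08G145600 (r = 0.994), annotated with cell wall biogenesis, and the peroxidase gene GLYMA_06G145300 (r = 0.993). The gene most like GLYMA_11G011500 was GLYMA_08G025700 (r = 0.999), annotated with the endoplasmic reticulum lumen and the response to unfolded protein, and the protein disulfide isomerase gene GLYMA_02G266900 came at place 3 (r = 0.995). GLYMA_03G179800 and GLYMA_09G179400 (both r = 0.995) and the metal ion binding gene GLYMA_07G132000 (r = 0.994) followed. GLYMA_07G132000 had 104 FPKM in Cd+OP roots, 540.0 FPKM in Cd roots, 116 FPKM in control+OP roots and 84.8 FPKM in control roots on average. GLYMA_07G202300 was most like GLYMA_13G001000 (r = 0.988), annotated with the Golgi apparatus, and the proteasome subunit gene GLYMA_11G200000 came at place 3 (r = 0.982). GLYMA_19G183400 (r = 0.986), GLYMA_18G289900 (r = 0.982) and the glycosyltransferase gene GLYMA_09G127700 (r = 0.981) made up the rest. IFS2 was most like the cellulase-annotated gene GLYMA_20G061100 (r = 0.997), and the methionine adenosyltransferase gene GLYMA_17G039100 came at place 3 (r = 0.996). The remaining ones were GLYMA_09G029900 (r = 0.997), GLYMA_13G326800 (r = 0.996) and the transporter gene GLYMA_02G298500 (r = 0.994). Among the 5 genes themselves, CYP73A11 and GLYMA_11G011500 were the most alike (r = 0.961), CHS7 and GLYMA_11G011500 had r = 0.927, and IFS2 and GLYMA_07G202300 were the least alike (r = 0.093).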

How the data were processed

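RNA from soybean roots was sequenced on an Illumina NovaSeq after TRIzol extraction, per the labels. The authors deposited FPKM and count columns for 49128 genes in 12 libraries, per the file headers. Neither labels nor headers name an aligner, a counting tool or a genome build. The count columns, as the authors deposited them, were read as holding estimated counts. They are whole numbers, but 10000 values equal 4, against 5019 at 3 and 3231 at 5, so they are no plain tally of reads. The 5 genes and the pathway lists were chosen with earlier results of these data known. The 30340 genes that averaged 1 FPKM or more were tested with edgeR 4.0.16 quasi-likelihood fits in R 4.3.3, with TMM scaling, 1 model over the 4 groups, Benjamini-Hochberg adjustment over all tested genes and a threshold of 0.05. SEs are the log2 fold change divided by the root of F. FPKM ratios differ slightly from the fitted changes, which use TMM-scaled counts. Of each enzyme on the list the rule names the most abundant gene and those with the highest and lowest log2 fold change of Cd against control, and, for each of the 5 genes, the 5 most alike genes. A gene picked from several of its enzyme for its change in Cd against control is given no p-value there. Comparisons that share the Cd or control libraries are not independent of that choice. Alternatives used DESeq2 1.42.0, limma 3.58.1 on log2(FPKM + 1) and log2(FPKM + 0.1), other filters, other scaling, counts divided by 4, only the groups compared, a replicate block and each library left out. No identifier matched the reference gene table (0 of 49128), and no sequence is shown.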

Additional observations from a re-analysis of the deposited data

Results flagged for a closer look

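For 3 of the 5 genes the change with OP between group means had opposite signs with and without Cd. This difference was not tested because the genes were chosen on these data. The FPKM ranges of the groups compared did not overlap, as for 72.9% of all tested genes in Cd+OP against Cd and 65.4% in control+OP against control. The share of all tested genes with opposite signs was not computed, so the count of 3 is a description only. In roots with Cd (Cd+OP against Cd) the log2 fold change was -1.19 for CHS7, -1.75 for GLYMA_11G011500 and -0.59 for IFS2, and in roots without Cd (control+OP against control) it was 0.42 for CHS7, 0.43 for GLYMA_11G011500 and 0.34 for IFS2.

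By edgeR's test of the difference itself, at an adjusted p under 0.05, the change with OP differed between roots with and without Cd for 64 of the 76 tested pathway genes, 16 higher and 48 lower, where 33.4% of all tested genes were called higher and 30.4% lower. Given here are the 29 among the 34 tested list genes that the naming rule picks. Genes picked for a high or low change of Cd against control were picked on part of this difference. High picks thus lean lower and low picks higher, and their values are a description only. The values are log2 differences, the change with OP in roots with Cd minus that in roots without it. Among entry genes they were -1.15 for GLYMA_13G145000, -0.65 for GLYMA_03G181700 and -0.52 for GLYMA_05G234900 (phenylalanine ammonia-lyases). They were -2.10 for GLYMA_14G205200 and 0.83 for GLYMA_20G114200 (cinnamate hydroxylases). For 4-coumarate-CoA ligases they were -1.26 for GLYMA_01G232400 and -3.87 for GLYMA_11G091600, which entered the test only through its level in the Cd group. Chalcone synthases gave -2.04 for CHS6 and 0.66 for CHS1, and the chalcone reductase GLYMA_02G307300 gave -1.38. Chalcone isomerases gave -1.73 for CHI1A, -2.73 for GLYMA_20G241700 and 0.23 for CHI1B1.

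Among isoflavonoid genes the values were -0.22 for HIDH, -1.76 for GLYMA_11G070500, 0.33 for CYP93A1 and -0.99 for GmIF7GT1. GmIF7GT1 entered the test only through its level in the control+OP group. The isoflavone hydroxylases gave -0.37 for GLYMA_09G049100, -2.84 for GLYMA_09G049200 and 0.65 for GLYMA_16G149300. The isoflavone methyltransferases gave 0.35 for GLYMA_10G176500 and 1.16 for GLYMA_09G094600. In the branches the values were -1.92 for GLYMA_06G202300, 0.37 for GLYMA_02G158700, -0.24 for GLYMA_18G103500, -0.64 for GLYMA_03G028700, 1.82 for GLYMA_16G148300, -1.17 for GLYMA_15G003600 and 0.33 for GLYMA_07G023700. GLYMA_16G148300 entered the test only through its level in the groups without Cd. Its mean in Cd roots was 0.156 FPKM, so its value is a description only.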

How the results depend on the processing

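With a mean of at least 5 FPKM as the filter, fewer genes entered the test, and the genes called numbered 12874 for Cd+OP against Cd, 13201 for Cd against control, 11494 for control+OP against control, 12241 for Cd+OP against control+OP, 11402 for Cd+OP against control and 11822 for the interaction. The fit reported called 21553, 23132, 18761, 20229, 18066 and 19381 in the same order. All other counts of genes and of pathway genes stayed within 1.5 times under each of the alternatives run. The numbers of pathway genes called ranged over these from 49 to 76 for Cd+OP against Cd (65 in the fit reported) and from 51 to 82 for Cd against control (68). These ranges are not over a fixed set of genes. The fit reported tested 76 pathway genes, the stricter filter admitted fewer genes, and the fit without a filter on low values admitted more. For the 5 genes, 1 of 30 log2 values changed sign: GLYMA_11G011500 in Cd+OP against control lay between -0.0177 and 0.0541 with 1 library left out, the negative values without 1 Cd or 1 control library, and the cause was not tested. The largest shift of any of the 30 values was 0.0897. Deviations from the group means were nearly uncorrelated between libraries of different groups. The r lay between -0.0218 and 0.0564 over 18 pairs with the same number and between -0.0485 and 0.0249 over the other pairs. For 7 of 12 libraries the mean r was highest with the libraries of their own number. These values neither show nor exclude a pairing by number, and the fit reported treats the libraries as unpaired. With the replicate block 21445 genes and 65 pathway genes were called for Cd+OP against Cd, and 23046 and 68 for Cd against control. A fit of only the groups compared gives no interaction.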
